A study of Mus musculus with 5 samples.

Results

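The proteasome genes were examined in RNA recovered with the RNA-binding protein MKRN1 from mouse embryonic stem cells. Members were all probe sets paired with 1 gene symbol that begins with Psma, Psmb, Psmc, Psmd, Psme, Psmf or Psmg followed by a digit, and each gene was represented by its brightest probe set, the one with the highest mean over the 5 arrays. This gave 56 probe sets for 50 genes, out of 34760 probe sets and 19937 genes in all. Of the 50 genes, 49 reached the level filter, a mean log2 value of 5.76, which 11502 genes of the array reached. Psmb11, the thymus-specific catalytic subunit, did not reach it. The symbol rule also took Psmc3ip and Psme3ip1, which encode a meiotic recombination cofactor and a binding partner of Psme3 and are not subunits. Without them every median against a control RIP given below for the 49 genes was the same to 2 decimals.

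The 26S proteasome degrades proteins that carry ubiquitin chains. Its 20S core is a barrel with outer rings of alpha subunits, which gate the entrance, and inner rings of beta subunits, 3 kinds of which cut peptide bonds. The 19S particle on the end of the barrel has a base with 6 ATPases, which unfold substrates, and a lid that removes ubiquitin. Separate activators can replace the 19S particle, and dedicated factors that are not part of the finished complex guide assembly. Most of these genes are active in every cell, and stem cells use the proteasome to turn over regulatory proteins.

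The arrays measured RNA of R1 cells, a male line from the inner cell mass of a 129X1 x 129S1 blastocyst. The FLAG:MKRN1 line constitutively expressed a FLAG-tagged MKRN1 fusion from the pCAGGS::3xN-FLAG:MKRN1 construct, and the FLAG:Ctrl line carried the pCAGGS::3xN-FLAG construct without MKRN1. Both lines were stem cell clones, were resistant to G418 and were grown in LIF and 15% serum, first on fibroblast feeders and then on gelatin. The 5 groups, of 1 array each, were an anti-FLAG immunoprecipitation (RIP) from FLAG:MKRN1 lysate, an anti-FLAG RIP from FLAG:Ctrl lysate, an IgG RIP from FLAG:MKRN1 lysate, and the inputs of FLAG:MKRN1 and of FLAG:Ctrl lysate. Each RIP used 4 mg of lysate protein, and 10 ng of RNA went into each cDNA. With 1 array per group there was no replicate error and no test, so every difference below compares particular arrays and none has a replicate check.

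Values are log2 signals as deposited, on arrays whose medians lay between 5.68 and 5.88. The array of the FLAG:MKRN1 anti-FLAG RIP correlated with the other arrays at Pearson's r of 0.959 to 0.967 and the control RIPs with each other at 0.992, both computed over probe sets, which do not count as replicates. Mkrn1 had 11.90 in that RIP, 12.20 in the FLAG:Ctrl RIP and 11.99 in the IgG RIP, against 11.71 and 11.80 in the FLAG:MKRN1 and FLAG:Ctrl inputs. Its signal therefore did not mark the FLAG:MKRN1 lysate, whether or not the probe set covers the construct, and the array is called the MKRN1-labelled RIP. All 7 stem cell markers examined, Pou5f1 and Nanog among them, reached the level filter. Of 8 feeder fibroblast markers 4 reached it, namely Thy1, Col1a1, Col1a2 and Col3a1. Thy1 had a mean of 8.96 over the arrays and 9.88 in the FLAG:Ctrl input, above the stem cell marker Esrrb with a mean of 8.27. Col1a1 had a mean of 6.78, and Postn and Lum reached no more than 4.18 on any array. The MKRN1-labelled RIP stood apart from the other arrays, and since it enters every comparison with both control RIPs, these comparisons share it. An array signal gives the share of a transcript in the labelled RNA, so a lower recovery of proteasome transcripts and a higher recovery of others cannot be told apart.

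**Figure D1:**
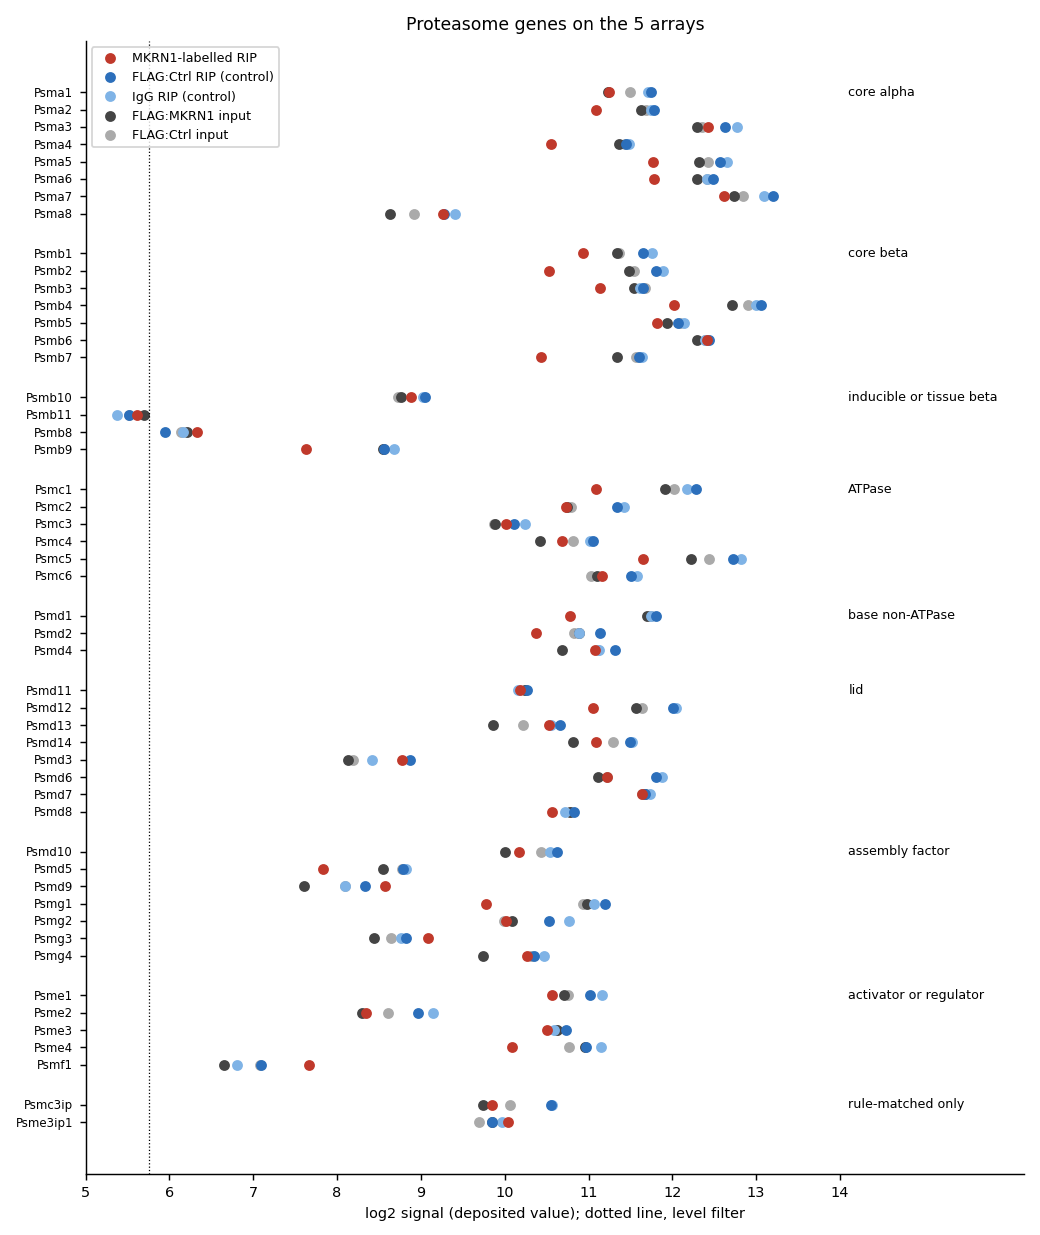
Log2 signal (horizontal axis) of the 50 proteasome genes on each of the 5 arrays, grouped by role; points are single arrays and the dotted line is the level filter. The MKRN1-labelled RIP is below both control RIPs in 41 of the 49 genes at or above the filter, and Psmf1, Psmd9 and Psmg3 are among the 5 where it is above both.

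Proteasome transcripts lay lower in the MKRN1-labelled RIP than in both control RIPs. Of the 49 genes, 41 (83.7%) were below both, 5 were above both and 3 had differences of opposite sign, while 44.4% of all 11502 genes were below both. The median log2 difference was -0.50 against the FLAG:Ctrl RIP, where all genes had -0.03, and -0.47 against the IgG RIP, where all genes had -0.001. Taken alone, the FLAG:Ctrl RIP put 7 proteasome genes at least 2-fold lower and none higher, where the percentages over all genes were 7.11 and 1.62. The IgG RIP alone likewise put 7 lower and none higher, where those percentages were 6.94 and 1.53. A gene was called lower when it was at least 2-fold (1 on the log2 scale) below both control RIPs and also below its input. By this rule 5 proteasome genes were lower, which is 10.2% of the 49, and the percentage called lower over all genes was 5.36. None was called higher, where the percentage over all genes was 1.09.

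Signal level went with this difference. Each gene was given a score, its difference from the nearer control RIP, set to 0 for a gene that lay between them. Over all 11502 genes the score was lower at higher mean log2 values (Spearman's rho -0.403 across genes). Over the 49 proteasome genes rho was -0.449. Among genes with a mean log2 value of 10 or more, 36 of 38 proteasome genes (94.7%) and 66.3% of all 1618 genes lay below both control RIPs. In that range 5 of 38 proteasome genes (13.2%) were called lower, where 8.34% of all genes were. With the trend on signal level removed, the proteasome medians were -0.16 (FLAG:Ctrl RIP) and -0.21 (IgG RIP), where all genes had -0.0041 and -0.0085. In that setting 32 of 49 proteasome genes lay below both. The share of all genes below both is not given for it, so this count shows no excess by itself. The score was also lower at longer spans of the gene on the genome, with rho -0.324 over the 11475 genes that have a span, while over the 49 proteasome genes rho was -0.113. Transcript length was not used here.

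**Figure D2:**
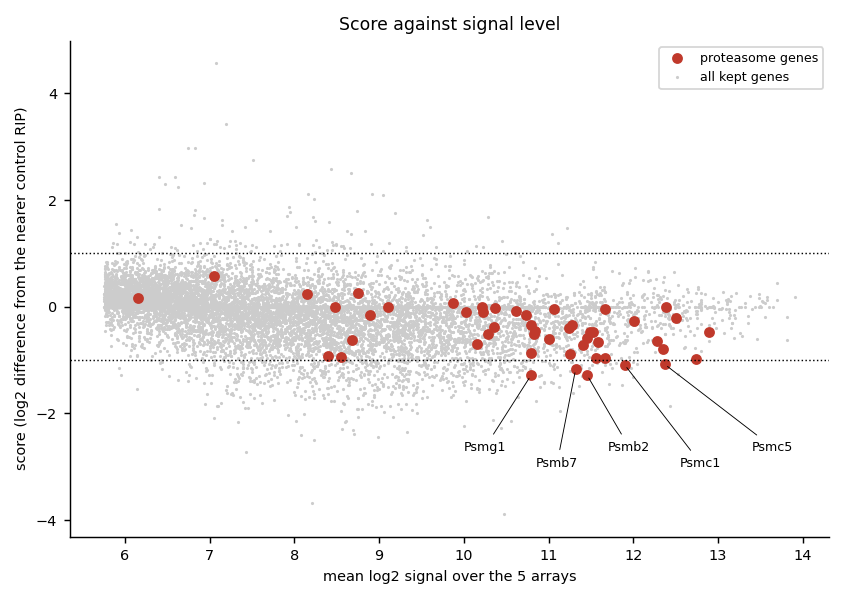
Score of each gene (vertical axis, log2 difference from the nearer control RIP) against its mean log2 signal over the 5 arrays, for the 49 proteasome genes and all 11502 kept genes; dotted lines mark 2-fold. The 5 labelled genes have scores from -1.29 to -1.08, and the cloud of all genes slopes downwards with signal.

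The genes called lower came from the core, the ATPase ring and the assembly factors. Psmg1, which with Psmg2 forms a chaperone that builds the alpha ring, had 9.77 in the MKRN1-labelled RIP, 11.20 in the FLAG:Ctrl RIP and 11.06 in the IgG RIP, against 10.98 and 10.94 in the FLAG:MKRN1 and FLAG:Ctrl inputs. It lay 2.69-fold under the FLAG:Ctrl RIP, 2.44-fold under the IgG RIP and 2.31-fold under its input. By the brightest probe set of each gene, it was the only proteasome gene at least 2-fold below that input. The MKRN1-labelled RIP was by far the lowest of the 5 arrays for this gene, while the other 4 lay close together.

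Psmb2, a non-catalytic beta subunit, had 10.53 in the MKRN1-labelled RIP, 11.81 in the FLAG:Ctrl RIP and 11.89 in the IgG RIP, against 11.49 and 11.55 in the FLAG:MKRN1 and FLAG:Ctrl inputs. Its distance was 2.42-fold to the FLAG:Ctrl RIP, 2.57-fold to the IgG RIP. Psmb7, which carries the trypsin-like activity, had 10.44 in the MKRN1-labelled RIP, against 11.61 in the FLAG:Ctrl RIP, 11.64 in the IgG RIP, and 11.34 and 11.56 in the FLAG:MKRN1 and FLAG:Ctrl inputs. In both genes the MKRN1-labelled RIP was the lowest array, and the remaining arrays lay close together.

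Psmc1 and Psmc5 encode ATPases of the ring, known in yeast as Rpt2 and Rpt6. Psmc1 had 11.09 in the MKRN1-labelled RIP, 12.28 in the FLAG:Ctrl RIP and 12.18 in the IgG RIP, against 11.91 and 12.02 in the FLAG:MKRN1 and FLAG:Ctrl inputs. Psmc5 had 11.65 in the MKRN1-labelled RIP, 12.72 in the FLAG:Ctrl RIP and 12.82 in the IgG RIP, against 12.22 and 12.43 in the FLAG:MKRN1 and FLAG:Ctrl inputs. Both were lowest in the MKRN1-labelled RIP, and both control RIPs lay above both inputs. Against the FLAG:Ctrl and IgG RIPs, Psmc1 was 2.28-fold and 2.12-fold lower, and Psmc5 2.11-fold and 2.26-fold lower.

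These calls lay near the threshold. Just inside it were Psmc5 and Psmc1, with scores of -1.08 and -1.09, and just outside were Psmb4 and Psmd1 at -0.97, Psmd12 at -0.96 and Psmd5 at -0.95. After quantile normalization, and also with the trend on signal level removed, Psmb2 alone was still called, with scores of -1.09 and -1.02, and the other 4 genes lay between -0.99 and -0.86. That is 2.04% of the 49, under the 3.61% of all genes called lower with quantile normalization and the 2.81% with the trend removed, so the excess over all genes was lost in both. With each array centred on its median over all probe sets, 12 genes (24.5%) were called lower, which include all 5, beside 8.42% of all genes. With centring on the median over the kept genes 3 (6.12%) were, Psmb2, Psmb7 and Psmg1, beside 3.52% of all genes. The 12 stand beside a median of all genes shifted to -0.23 against the FLAG:Ctrl RIP, and the 3 beside one shifted to 0.14.

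The subgroups of the complex differed in how far they lay below the control RIPs. The 7 constitutive beta subunits had a median score of -0.71 and the 8 alpha subunits -0.55. The 3 base subunits without ATPase activity had -0.50, the 6 ATPases -0.47 and the 7 assembly factors -0.37. The 8 lid subunits lay nearest to the control RIPs, at -0.10. No difference between subgroups was tested. The order of core, ATPases and lid held with quantile normalization (core beta -0.52, core alpha -0.44, ATPases -0.27, lid 0.02) and with the trend on signal level removed (-0.45, -0.37, -0.19 and 0.09 in the same order), in both of which the lid median was above 0.

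**Figure D3:**
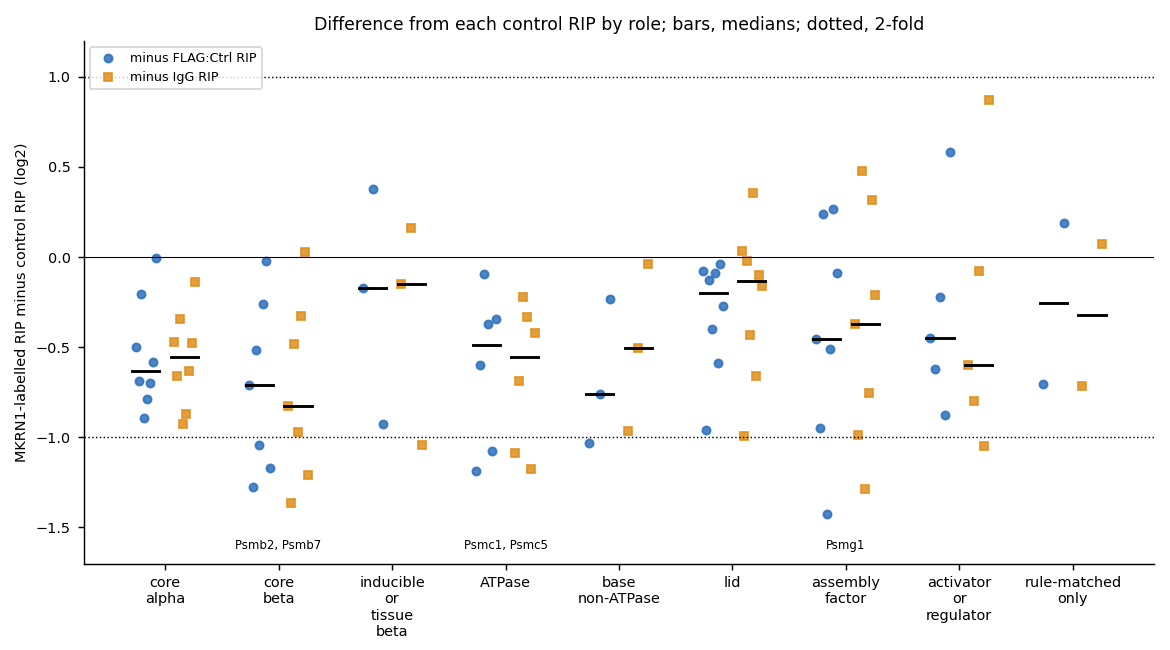
Log2 difference of the MKRN1-labelled RIP against the FLAG:Ctrl RIP (circles) and against the IgG RIP (squares) for each of the 49 genes, by role; bars are medians over genes and dotted lines mark 2-fold. Core beta medians are -0.71 and -0.82 and lid medians -0.20 and -0.13, and the genes called lower are named under their role.

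By the brightest probe set, all 8 alpha subunit genes lay below both control RIPs. Their differences from the FLAG:Ctrl RIP ran from -0.89 to -0.004. Psma4 was lowest, with 10.55 in the MKRN1-labelled RIP, 11.45 in the FLAG:Ctrl RIP and 11.48 in the IgG RIP, against 11.36 and 11.44 in the FLAG:MKRN1 and FLAG:Ctrl inputs. Psma8, the alpha subunit of testis proteasomes, was nearest to the control RIPs, with 9.27 in the MKRN1-labelled RIP, 9.27 in the FLAG:Ctrl RIP and 9.41 in the IgG RIP, against 8.63 and 8.92 in the FLAG:MKRN1 and FLAG:Ctrl inputs. For Psma8 the 3 RIPs lay together above both inputs, and for Psma4 the MKRN1-labelled RIP lay alone below the rest. Between them, Psma1 differed from the FLAG:Ctrl and IgG RIPs by -0.50 and -0.47, Psma2 by -0.69 and -0.66, Psma6 by -0.70 and -0.63 and Psma7 by -0.58 and -0.47.

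The catalytic beta subunits did not go together. Psmb7 was called lower, as described. Psmb5, the chymotrypsin-like subunit, had 11.81 in the MKRN1-labelled RIP, 12.07 in the FLAG:Ctrl RIP and 12.14 in the IgG RIP, against 11.94 and 12.09 in the FLAG:MKRN1 and FLAG:Ctrl inputs. Psmb6, the caspase-like subunit, had 12.42 in the MKRN1-labelled RIP, 12.44 in the FLAG:Ctrl RIP and 12.39 in the IgG RIP, against 12.30 and 12.39 in the FLAG:MKRN1 and FLAG:Ctrl inputs, so that the values of all 5 arrays nearly coincided. Of the structural beta subunits, Psmb4 differed from the FLAG:Ctrl and IgG RIPs by -1.04 and -0.97, and Psmb1 by -0.71 and -0.82.

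The subunits that immune cells exchange for the constitutive catalytic ones also differed among themselves. Psmb9, which takes the place of Psmb6, had 7.63 in the MKRN1-labelled RIP, 8.56 in the FLAG:Ctrl RIP and 8.67 in the IgG RIP, against 8.55 and 8.56 in the FLAG:MKRN1 and FLAG:Ctrl inputs. It missed the call with a score of -0.93. Psmb8, which takes the place of Psmb5, had 6.32 in the MKRN1-labelled RIP, 5.95 in the FLAG:Ctrl RIP and 6.16 in the IgG RIP, against 6.20 and 6.14 in the FLAG:MKRN1 and FLAG:Ctrl inputs, all close to the level filter. Psmb10, the counterpart of Psmb7, differed by -0.17 and -0.15. Psmb11 stayed under the level filter on every array, with 5.61 in the MKRN1-labelled RIP, 5.52 in the FLAG:Ctrl RIP and 5.38 in the IgG RIP, against 5.69 and 5.52 in the FLAG:MKRN1 and FLAG:Ctrl inputs.

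Among the ATPases all 6 lay below both control RIPs, but by unequal amounts. Psmc3 was nearest, with 10.02 in the MKRN1-labelled RIP, 10.11 in the FLAG:Ctrl RIP and 10.24 in the IgG RIP, against 9.89 and 9.88 in the FLAG:MKRN1 and FLAG:Ctrl inputs. Psmc2 differed by -0.60 and -0.69, Psmc6 by -0.34 and -0.42, and Psmc4 by -0.37 and -0.33. Of the scaffold subunits of the base, Psmd1 had 10.78 in the MKRN1-labelled RIP, 11.81 in the FLAG:Ctrl RIP and 11.74 in the IgG RIP, against 11.70 and 11.74 in the FLAG:MKRN1 and FLAG:Ctrl inputs, and Psmd2 differed by -0.76 and -0.50. The ubiquitin receptor gene Psmd4 had 11.08 in the MKRN1-labelled RIP, 11.32 in the FLAG:Ctrl RIP and 11.12 in the IgG RIP, against 10.69 and 11.12 in the FLAG:MKRN1 and FLAG:Ctrl inputs. For Psmd1 the MKRN1-labelled RIP lay alone below the rest, and for Psmd4 the FLAG:MKRN1 input was lowest.

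In the lid, 4 of 8 genes had scores between -0.10 and 0. Psmd7, a partner of the deubiquitinase, had 11.63 in the MKRN1-labelled RIP, 11.67 in the FLAG:Ctrl RIP and 11.73 in the IgG RIP, against 11.67 and 11.64 in the FLAG:MKRN1 and FLAG:Ctrl inputs, and thus nearly the same value on all 5 arrays. Psmd12, a scaffold-forming lid subunit, lay farthest below, with 11.05 in the MKRN1-labelled RIP, 12.01 in the FLAG:Ctrl RIP and 12.04 in the IgG RIP, against 11.57 and 11.64 in the FLAG:MKRN1 and FLAG:Ctrl inputs. Psmd14, the deubiquitinase itself, had 11.09 in the MKRN1-labelled RIP, 11.49 in the FLAG:Ctrl RIP and 11.52 in the IgG RIP, against 10.82 and 11.30 in the FLAG:MKRN1 and FLAG:Ctrl inputs. The lid subunit genes Psmd3 and Psmd11 lay between the control RIPs. Psmd3 had 8.78 in the MKRN1-labelled RIP, 8.87 in the FLAG:Ctrl RIP and 8.42 in the IgG RIP, against 8.13 and 8.20 in the FLAG:MKRN1 and FLAG:Ctrl inputs. Psmd11 had 10.19 in the MKRN1-labelled RIP, 10.27 in the FLAG:Ctrl RIP and 10.15 in the IgG RIP, against 10.24 in either input. Of the other lid genes, Psmd6 differed by -0.59 and -0.66, Psmd8 by -0.27 and -0.16 and Psmd13 by -0.13 and -0.02.

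Assembly factors spread most widely, from Psmg1 at -1.29 to Psmg3 at 0.26. Psmg3 and Psmg4 form a second chaperone of the alpha ring. Psmg3 had 9.08 in the MKRN1-labelled RIP, 8.82 in the FLAG:Ctrl RIP and 8.77 in the IgG RIP, against 8.44 and 8.64 in the FLAG:MKRN1 and FLAG:Ctrl inputs. Psmg4 had 10.26 in the MKRN1-labelled RIP, 10.35 in the FLAG:Ctrl RIP and 10.47 in the IgG RIP, against 9.74 and 10.31 in the FLAG:MKRN1 and FLAG:Ctrl inputs. The members of each chaperone pair thus lay apart, since Psmg2, the partner of Psmg1, differed by -0.51 and -0.75. The chaperones of the ATPase ring were Psmd5 (-0.95 and -0.99), Psmd10 (-0.45 and -0.37) and Psmd9 (0.24 and 0.48).

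Among activators, Psme4, which encodes the large monomeric activator PA200, had 10.09 in the MKRN1-labelled RIP, 10.97 in the FLAG:Ctrl RIP and 11.14 in the IgG RIP, against 10.96 and 10.77 in the FLAG:MKRN1 and FLAG:Ctrl inputs. The subunits of the interferon-inducible activator, Psme1 and Psme2, differed from the FLAG:Ctrl RIP by -0.45 and -0.62, and from the IgG RIP by -0.60 and -0.80. A probe set shared by Psme2 and its copy Psme2b, which the symbol rule leaves out, differed by -0.23 and -0.49. Psme3, the nuclear activator, differed by -0.22 and -0.08. Psmf1, which encodes the regulator PI31, had the highest score, 0.58: its value was 7.67 in the MKRN1-labelled RIP, 7.09 in the FLAG:Ctrl RIP and 6.80 in the IgG RIP, against 6.65 and 7.08 in the FLAG:MKRN1 and FLAG:Ctrl inputs. It was the 1 proteasome gene at least 2-fold above the input of the FLAG:MKRN1 lysate. Of the rule-matched genes that are not subunits, Psmc3ip had 9.84 in the MKRN1-labelled RIP, 10.55 in the FLAG:Ctrl RIP and 10.56 in the IgG RIP, against 9.74 and 10.06 in the FLAG:MKRN1 and FLAG:Ctrl inputs. Psme3ip1 had 10.04 in the MKRN1-labelled RIP, 9.84 in the FLAG:Ctrl RIP and 9.96 in the IgG RIP, against 9.84 and 9.69 in the FLAG:MKRN1 and FLAG:Ctrl inputs.

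A gene can have more than 1 probe set, and the choice among them mattered here. Of the 50 genes, 5 had 2 or 3. On this array probe set numbers run in genomic order: for each of the 45 genes with 1 probe set, most of the 20 probe sets nearest in number belonged to genes on the chromosome that RefSeq (GRCm38.p6) gives for it. For Psma3, Psma5 and Psmb3 the brightest probe set was instead surrounded by genes of another chromosome, and a dimmer one by genes of their own. Psma5 lies on chromosome 3, and its brightest probe set was surrounded by genes of chromosome 10 (19 of 20), where RefSeq lists the pseudogene Psma5-ps. Which transcripts the brighter probe sets read was not tested.

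Psmb3, a structural beta subunit gene of chromosome 11, differed most with this choice. Its brightest probe set, surrounded by genes of chromosome 16 (17 of 20), had 11.14 in the MKRN1-labelled RIP, 11.65 in the FLAG:Ctrl RIP and 11.62 in the IgG RIP, against 11.54 and 11.68 in the FLAG:MKRN1 and FLAG:Ctrl inputs. The other, surrounded by genes of chromosome 11 (20 of 20), had 8.92 in the MKRN1-labelled RIP, 11.01 in the FLAG:Ctrl RIP and 10.90 in the IgG RIP, against 11.01 and 11.29 in the FLAG:MKRN1 and FLAG:Ctrl inputs. This probe set had a score of -1.98, beyond that of any gene by its brightest probe set. The second probe set of Psma5 differed by -1.07 and -1.11. For Psma3 the brightest probe set had 12.43 in the MKRN1-labelled RIP, 12.63 in the FLAG:Ctrl RIP and 12.77 in the IgG RIP, against 12.30 and 12.36 in the FLAG:MKRN1 and FLAG:Ctrl inputs, while the third had 8.94, 8.85 and 9.60 in the same RIPs, against 8.52 and 8.14 in the inputs. Both probe sets of Psmc1 were at least 2-fold below both control RIPs. With the probe set of the own chromosome for Psma3, Psma5 and Psmb3, an alternative chosen after the values were seen, 7 genes were called lower, Psma5 and Psmb3 in addition to the 5, and the percentage over all genes was 5.38.

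**Figure D4:**
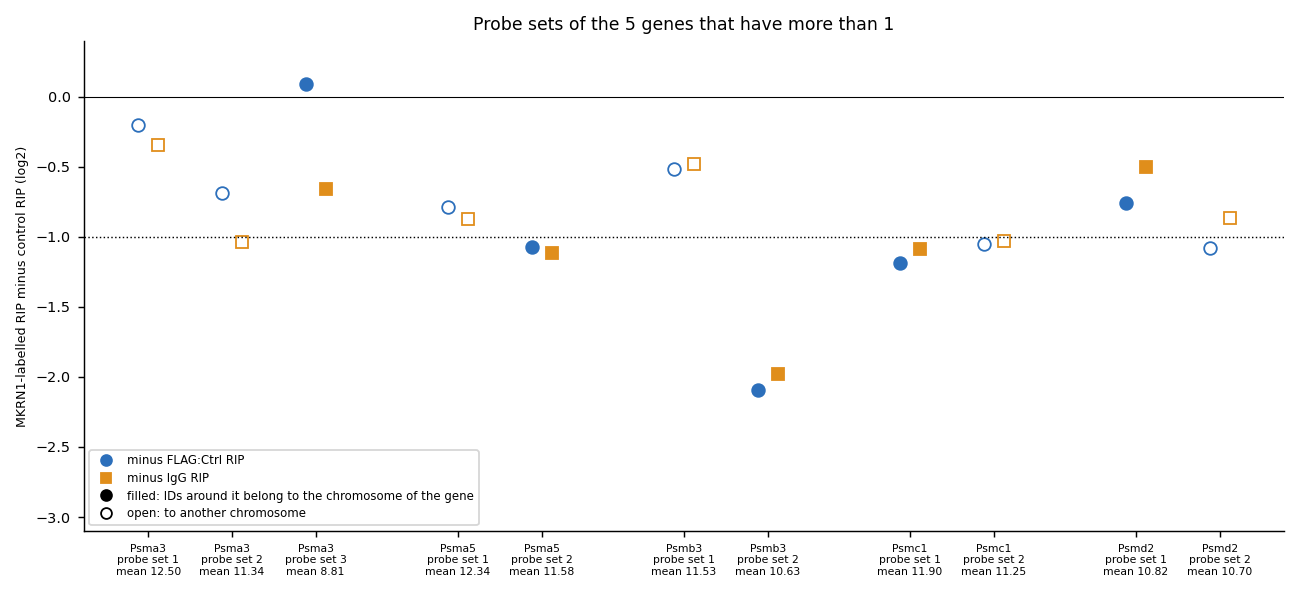
Log2 difference of the MKRN1-labelled RIP from the FLAG:Ctrl RIP (circles) and the IgG RIP (squares) for every probe set of the 5 genes that have more than 1, with its mean log2 value; filled symbols are probe sets whose neighbours in number belong to the chromosome of the gene. The second probe set of Psmb3 lies at -2.09 and -1.98, against -0.52 and -0.48 for the first.

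Each RIP was also set against the input of its own lysate. The MKRN1-labelled RIP held proteasome transcripts at about the level of its input, with a median difference of -0.0545, where all genes had 0. The sign of this median was not stable, since it was 0.0479 with quantile normalization and 0.0456 with the trend on signal level removed. Of the 49 genes 27 lay below the input and 22 above it. By the brightest probe sets, at the 2-fold mark were 1 below, Psmg1, where the percentage over all genes was 5.51, and 1 above, Psmf1, where it was 2.47. The second probe set of Psmb3, not counted there, differed from the FLAG:MKRN1 input by -2.09. By role the medians were -0.41 for core beta, -0.32 for core alpha, 0.02 for ATPases, 0.03 for the lid and 0.17 for assembly factors.

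Both control RIPs held more proteasome signal than their inputs. The median difference was 0.20 in FLAG:Ctrl and 0.33 with IgG, where all genes had 0.01 and 0.004 and genes with a mean log2 value of 10 or more had 0.13 and 0.14. The 8 genes of the chaperonin TRiC, which folds actin and tubulin, had 0.35 and 0.28. With the trend on signal level removed, the proteasome medians were 0.0622 and 0.20. In 41 of the 49 genes (83.7%) both control RIPs lay above their inputs, as did 36.8% of all genes. No proteasome gene reached 2-fold in either: for the FLAG:Ctrl RIP the percentages over all genes were 0.948 higher and 0.374 lower, and for the IgG RIP 1.32 and 0.461. In 20 genes the MKRN1-labelled RIP lay below its input while both control RIPs lay above theirs, which is 40.8% of the 49, beside 15.6% of all genes. The ATPases showed the highest median of the groups by role in the IgG RIP, 0.54, and in that RIP all 6 were above input, led by Psmc2 at 0.68.

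**Figure D5:**
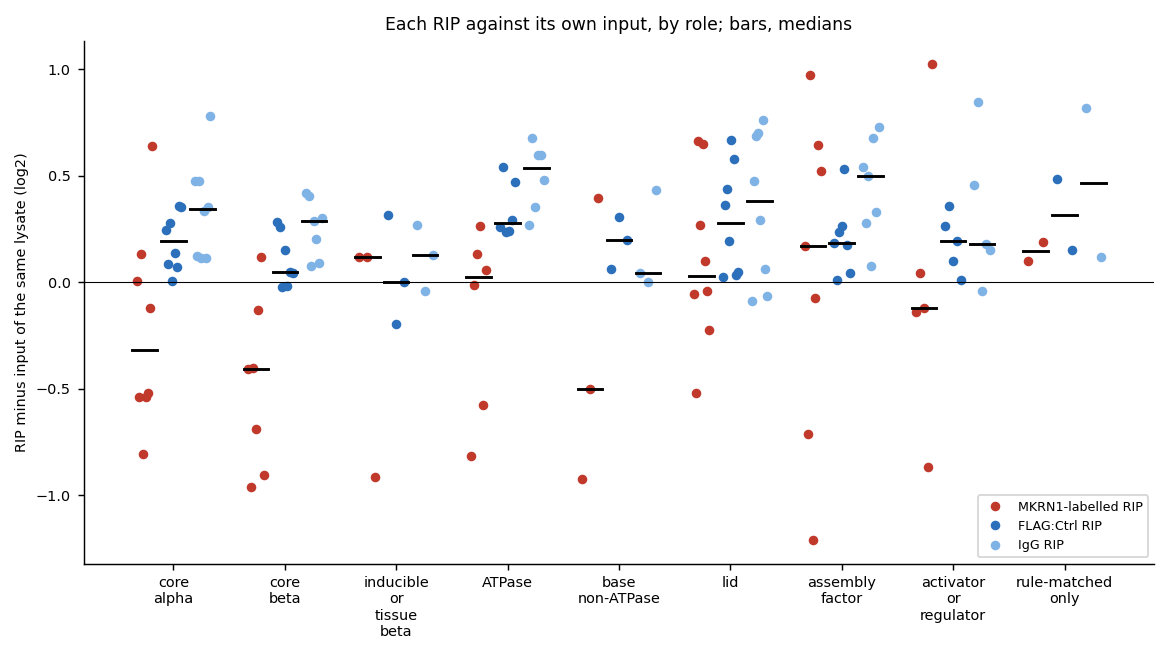
Log2 difference of each RIP from the input of the same lysate for the 49 genes, by role; bars are medians over genes. Core beta genes have medians of -0.41 in the MKRN1-labelled RIP, 0.05 in the FLAG:Ctrl RIP and 0.29 in the IgG RIP, and lid genes 0.03, 0.28 and 0.38.

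The lysates themselves differed little. The median over the 49 genes was -0.09 for the FLAG:MKRN1 input minus the FLAG:Ctrl input, where all genes had 0. Of the 49 genes 36 lay below, 10 above and 3 were equal. Of all 11502 genes 5435 lay below, 4444 above and 1623 were equal. All 15 genes of the core alpha and core beta groups lay below, by amounts from -0.29 to -0.02. The -0.29 belonged to Psma8, the testis form, and Psma1 came next at -0.26. The lowest was Psmg4, which differed by -0.57, followed by Psmd9 at -0.50 and Psmd14 at -0.48. The highest was Psme4 at 0.19. No proteasome gene reached 2-fold between the inputs, where the percentages over all genes were 0.791 lower and 0.878 higher. With the own input taken from each RIP before the call, 4 genes were called lower, namely Psmg1, Psmb2, Psmc1 and Psme4, beside 5.31% of all genes, and the median score of the assembly factors went to -0.01.

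Promoters are shown for the genes called lower that have an entry, Psmc1, Psmc5 and Psmg1, and for Psmb6, whose value barely differed between arrays. RefSeq windows of GRCm38.p6, from 250 bases before to 50 after the start, matched 42 of the 50 genes. The windows are chr12:100109952-100110251 on the plus strand for Psmc1, chr11:106255935-106256234 on the plus strand for Psmc5, chr16:95990911-95991210 on the minus strand for Psmg1 and chr11:70525107-70525406 on the plus strand for Psmb6, each written 5′ to 3′ along the gene. Capitals mark matches on either strand to TGACNNNGC (the core of the antioxidant response element, through which the factor encoded by Nfe2l1 is known to drive proteasome genes), to CCAAT (bound by NF-Y) or to CCGGAAG (the core bound by ETS factors).
Psmc1: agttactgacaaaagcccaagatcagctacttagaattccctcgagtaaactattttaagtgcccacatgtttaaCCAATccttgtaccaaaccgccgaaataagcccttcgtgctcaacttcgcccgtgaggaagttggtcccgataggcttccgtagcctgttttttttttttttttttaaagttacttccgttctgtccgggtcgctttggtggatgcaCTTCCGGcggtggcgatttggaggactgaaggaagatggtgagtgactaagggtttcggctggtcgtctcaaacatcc
Psmc5: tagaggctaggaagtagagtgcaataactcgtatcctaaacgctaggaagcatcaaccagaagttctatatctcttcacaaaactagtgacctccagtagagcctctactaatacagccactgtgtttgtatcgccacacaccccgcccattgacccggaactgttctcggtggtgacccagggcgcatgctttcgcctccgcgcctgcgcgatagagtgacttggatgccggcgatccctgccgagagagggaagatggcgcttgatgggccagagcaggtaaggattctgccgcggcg
Psmg1: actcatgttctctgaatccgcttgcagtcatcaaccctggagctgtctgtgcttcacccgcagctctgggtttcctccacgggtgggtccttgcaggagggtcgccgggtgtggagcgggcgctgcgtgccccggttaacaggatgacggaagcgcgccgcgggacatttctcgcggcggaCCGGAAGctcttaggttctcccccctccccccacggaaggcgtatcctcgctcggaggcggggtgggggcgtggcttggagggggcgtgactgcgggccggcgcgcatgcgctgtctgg
Psmb6: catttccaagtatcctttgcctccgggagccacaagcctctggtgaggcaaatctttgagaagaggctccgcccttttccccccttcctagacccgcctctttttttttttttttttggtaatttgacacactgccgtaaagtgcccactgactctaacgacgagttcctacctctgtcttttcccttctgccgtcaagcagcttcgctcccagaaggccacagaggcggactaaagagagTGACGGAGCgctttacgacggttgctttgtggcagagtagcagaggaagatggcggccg
The window of Psmc1 held a CCAAT and an ETS match, that of Psmg1 an ETS match, that of Psmb6 an antioxidant element core, and that of Psmc5 none of these letters.

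Over all 46 windows of the 42 genes, the antioxidant element core was in 13.0%, beside 14.0% of the windows of kept genes and 12.4% of all 32851 windows. CCAAT was in 34.8%, beside 38.0% of the windows of kept genes and 37.4% of all windows. CCGGAAG, added after the sequences had been read, was in 37.0% of the proteasome windows, 17.2% of the 11680 windows of kept genes and 8.86% of all windows. The genes with this match included Psmg1 (score -1.29) as well as Psmd13 (-0.02) and Psmg3 (0.26), so members with the match lay across the range of scores. A match is a description of these letters and not a binding site.

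Other genes of the pathway were taken from a list of 34, of which 22 had a probe set with 1 symbol and all 22 reached the level filter. Of these, 13 lay below both control RIPs, 2 were called lower and none higher, beside the 5.36% and 1.09% of all genes. The lower ones were Uba6, which encodes a ubiquitin-activating enzyme, with differences of -1.61 and -1.52 from the FLAG:Ctrl and IgG RIPs, and Ube3c, which encodes a ubiquitin ligase that works on the proteasome, with -1.61 and -1.37. Sem1, the small lid subunit outside the symbol rule, was highest at 0.58 and 0.57. The deubiquitinases bound to the 19S particle lay apart, with Usp14 at -0.81 and -0.87 and Uchl5 at 0.11 and 0.05. The assembly factor gene Pomp differed by -0.30 and -0.29, and the scaffold gene Ecpas by -1.22 and -0.74. Nfe2l1, which encodes the transcription factor that restores proteasome levels, differed by -0.01 and 0.02.

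Subunit genes of other large complexes give a scale. The 8 subunit genes of the chaperonin TRiC all lay below both control RIPs, with medians of -0.55 and -0.73. Of them 1 was called lower (12.5%), beside 5.36% of all genes. The 57 kept genes with Rpl or Rps symbols, mostly ribosomal proteins, had medians of -0.01 and -0.02 from the FLAG:Ctrl and IgG RIPs, with 26 below both and none called lower. Proteasome genes, with -0.50 and -0.47, thus lay beside the chaperonin genes, and the difference between the lists was not tested. The lists also differ in signal level, and over all genes the score was lower at higher signal. The Rpl and Rps genes, the brightest list, had a median score of 0, against -0.55 for TRiC and -0.47 for the proteasome genes. The part of signal level in these differences was not tested. The median of the mean log2 values was 13.05 for the Rpl and Rps genes, 11.83 for TRiC and 10.84 for the proteasome genes.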

How the data were processed

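RNA immunoprecipitates and inputs from 5 samples were measured on Affymetrix arrays, biotin-labelled by standard procedures per the labels' protocols. As deposited, the authors' values are on a log2 scale, which was read from their range; how background was corrected and arrays were normalized is not given in the sources used here. Probe sets were named from the platform annotation, with symbols updated through RefSeq gene identifiers (GRCm38.p6), and those with several symbols were left out. Samples were grouped by title. Differences of log2 values were taken as deposited, with a threshold of 2-fold and a filter at the median of all probe-set means. With 1 array per group no test was run. Work used python 3.11.15, pandas 2.3.3 and statsmodels 0.14.6 (lowess, span 0.3, for the trend with signal level).

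Named are the members, with 5 values at least for those called, at either end of a role, under the filter, or with probe sets that differ in sign, and genes of the other lists. The members, roles and lists were chosen with earlier results of these data known. Precision is limited by the number of arrays. Equal values (within 1e-06) on at least 1 pair of arrays occurred in 10 of the 49 genes and in 6071 of all 11502 genes.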

Additional observations from a re-analysis of the deposited data

Results flagged for a closer look

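The median difference of the anti-FLAG RIP from its own input over the 49 proteasome genes was -0.0545 in FLAG:MKRN1 lysate, against 0.20 in FLAG:Ctrl lysate, with 1 array each and no test of the difference. The signs were opposite in the values as deposited but not with quantile normalization (0.0479 in FLAG:MKRN1 lysate, against 0.11 in FLAG:Ctrl lysate) or with the trend on signal level removed (0.0456, against 0.0622 in FLAG:Ctrl lysate). The signs were also opposite for the 5 genes called lower, for which the call itself requires a value below input in FLAG:MKRN1 lysate. The difference from input was -1.21 for Psmg1 in FLAG:MKRN1 lysate, against 0.26 in FLAG:Ctrl lysate. For Psmb2 it was -0.96 in FLAG:MKRN1 lysate, against 0.26 in FLAG:Ctrl lysate, and for Psmb7 -0.91, against 0.04 in FLAG:Ctrl lysate. For Psmc1 it was -0.82 in FLAG:MKRN1 lysate, against 0.26 in FLAG:Ctrl lysate, and for Psmc5 -0.57, against 0.29 in FLAG:Ctrl lysate. The MKRN1-labelled RIP also had the narrowest spread of values over all probe sets, an SD of 2.19, against 2.35 in the FLAG:Ctrl RIP, and its part in these values was not tested.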

How the results depend on the processing

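The count of proteasome genes called lower was 5, beside 5.36% of all genes. It went to 12 with arrays centred on the median of all probe sets (8.42% of all genes), 3 with centring on the kept genes (3.52%), 1 with quantile normalization (3.61%) and 1 with the trend on signal level removed (2.81%). It was 17 at 1.5-fold and 0 at 4-fold. The shares of all genes also moved there and are not given, so neither count shows an excess or a lack. Other settings gave 4 to 7, and no setting called a gene higher. The count was 5 without a level filter (3.1% of all genes) and 6 with the median over probe sets (5.3%). With values under the filter raised to it the count was 5 (5.29%), and with own-chromosome probe sets 7 (5.38%). Without Psmc3ip and Psme3ip1 it was 5 (5.37%). Shares are not given here for 1 control RIP alone or without the input in the call, so those counts show no excess. With the 75th percentile filter 5 of 47 genes (10.6%) were called lower, beside 9.05% of all genes, so little of the excess was left. Medians are given here where they changed sign or moved by over 1.5 times. With quantile normalization the median of the MKRN1-labelled RIP was -0.26 against the FLAG:Ctrl RIP, -0.28 against the IgG RIP and 0.0479 against its input, and the medians against input were 0.11 (FLAG:Ctrl RIP) and 0.22 (IgG RIP). Role medians were then 0.0531 (inducible beta), -0.27 (ATPases), -0.26 (base), 0.0244 (lid), -0.0888 (assembly factors), -0.23 (activators) and -0.0273 (rule-matched only). With the trend removed the same 5 medians were -0.16, -0.21, 0.0456, 0.0622 and 0.20, and role medians -0.45 (core beta), 0.0179 (inducible beta), -0.19 (ATPases), -0.20 (base), 0.0949 (lid), -0.0429 (assembly factors), -0.14 (activators) and 0.0302 (rule-matched only). Centring on all probe sets gave -0.16 for the MKRN1-labelled RIP against its input, -0.33 (inducible beta) and -0.29 (lid). Centring on the kept genes gave -0.0097 for the MKRN1-labelled RIP and 0.10 for the FLAG:Ctrl RIP against input, and -0.0056 (inducible beta), -0.31 (ATPases), 0.01 (lid), -0.23 (assembly factors), -0.28 (activators) and -0.16 (rule-matched only). Without a filter inducible beta had -0.0279, and a 75th percentile filter, which drops Psmb8, gave -0.54. Subtracting inputs gave -0.0363 (lid), -0.0145 (assembly factors) and -0.17 (rule-matched only). The cause of the scaling changes was not tested. The settings that use the own chromosome, centre on kept genes or drop Psmc3ip and Psme3ip1 were chosen after seeing the data. No paired analysis was possible because each group has 1 array.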
